A study of Mus musculus with 4 samples.

Results

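The 10 genes described here encode transcription factors of the melanocyte lineage: Mitf, Sox10, Pax3, Tfap2a, Lef1, Sox9, Foxd3, Tfe3, Tfeb and Pou3f2. They were taken by gene symbol, with older symbols of the same gene included (the array lists Tfap2a, Tfe3 and Tfeb as Tcfap2a, Tcfe3 and Tcfeb), and every probe of a gene was kept. A probe was found for 9 of the 10 genes, and Lef1 had 2, which gave 10 probes of the 33012 on the array, where 17302 probes carry 15694 distinct gene symbols. No probe was matched to Sox10, and this gene was not analysed here. RNA came from 4 cultured mouse melanoma lines of the C57Bl6 strain. B16 is the parental line, whose injected cells the labels call B16F1. B16-RI was grown from lymph node metastases of mice that had received B16 cells in the skin. B16-RII and B16-RIIL were grown from lymph node and lung metastases, respectively, of mice that had received B16-RI. All 4 lines were kept in the same serum-supplemented medium, and the RNA of a line was pooled from 2 passages. Labelled cRNA was hybridized to Applied Biosystems mouse arrays read by chemiluminescence. The values used come from 1 array per line, the array marked A. Sample descriptions name this array for B16 and B16-RI. B16-RII and B16-RIIL were matched to it by the line in the sample title. The deposited table also holds second arrays, which may be the duplicates that the study describes. No label names them, and they were not used here. So no difference between lines given here has a replicate check or a p-value, and on these arrays line, culture and array cannot be told apart.

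Melanocytes arise from the neural crest, and Mitf, a basic helix-loop-helix leucine zipper factor, is the central regulator of their pigment enzymes and survival. Pax3, Sox10, Lef1 and CREB act on the Mitf promoter, whereas Foxd3 is known to hold it off in neural crest cells and Pou3f2, also called Brn2, is known to repress it in melanoma cells. Tfe3 and Tfeb belong to the same MiT family as Mitf, bind the same E-box sequences, and are best known for driving lysosome and autophagy genes. In melanoma, changes in the balance between Mitf and Pou3f2 are known to go with differentiated or invasive behaviour of the cells.

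On the 4 arrays, between 13872 and 14855 probes were detected, and 11604 were detected on all 4. A detected probe had a signal-to-noise ratio, called S/N here, not under 3 and an analyzer flag not over 5000. The deposited normalized signals held 2 probe sets that were shifted against each other. Probes detected on all 4 arrays stood, by their median, 0.39, 0.41 and 0.46 log2 units from B16 in B16-RI, B16-RII and B16-RIIL in the set of 16524 probes, and 0.07, 0.42 and -0.01 in the set of 16488. Levels are therefore given as centred signals, the log2 of the normalized signal minus the median of its probe set on that array, so that 0 is the typical detected probe. A centred signal compares a probe between lines and says nothing of 1 gene against another. A probe was called higher or lower when its centred signal differed by at least 1 log2 unit, which is 2-fold, with detection on the array where it was brighter. Centring moved the balance of calls over all probes: 41.3%, 36.8% and 43.9% of the calls against B16 were higher on B16-RI, B16-RII and B16-RIIL, and without centring the shares were 52.1%, 63.2% and 60.2%. Without centring, the median over all probes detected on every array was 0.21, 0.41 and 0.22 log2 units above B16. Each member was also compared under 5 other scalings of the arrays, and the range over the 6 scalings stands beside its values where it bears on a direction or a call.

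Promoter sequences from RefSeq (assembly GRCm38.p6) were searched for motifs that such factors are known to bind. A promoter was listed for 7 of the 10 factors, and the 250 bases upstream of each start were searched on both strands for the E-box TCATGTG of pigment genes, its shorter form CATGTG, the palindromic E-box CACGTG, the cAMP response element TGACGTCA and the LEF/TCF motif CTTTGAT. The short form lies within TCATGTG, so these matches overlap. The first set is shown for 3 factors. They are Mitf at the most downstream of its 3 listed starts, which is the start of the melanocyte form, and Foxd3 and Pou3f2, the members called between lines. The Mitf window lies at chr6:97991533-97991782 (+), the Foxd3 window at chr4:99656049-99656298 (+), and the Pou3f2 window at chr4:22488367-22488616 (-). Capitals mark CTTTGAT and TGACGTCA in Mitf, TGACGTCA and CACGTG in Foxd3, and ATCAAAG, the reverse complement of CTTTGAT, in Pou3f2.
Mitf: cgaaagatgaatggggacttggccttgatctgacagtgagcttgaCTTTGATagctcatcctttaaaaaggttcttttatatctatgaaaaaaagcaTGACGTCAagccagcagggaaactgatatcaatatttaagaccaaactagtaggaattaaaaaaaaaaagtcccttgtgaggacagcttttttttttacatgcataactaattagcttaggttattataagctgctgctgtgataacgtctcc
Foxd3: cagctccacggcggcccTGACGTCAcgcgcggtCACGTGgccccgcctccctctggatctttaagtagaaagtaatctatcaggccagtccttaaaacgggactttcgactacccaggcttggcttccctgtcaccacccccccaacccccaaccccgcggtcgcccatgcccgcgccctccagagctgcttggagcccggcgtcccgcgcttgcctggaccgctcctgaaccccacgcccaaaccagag
Pou3f2: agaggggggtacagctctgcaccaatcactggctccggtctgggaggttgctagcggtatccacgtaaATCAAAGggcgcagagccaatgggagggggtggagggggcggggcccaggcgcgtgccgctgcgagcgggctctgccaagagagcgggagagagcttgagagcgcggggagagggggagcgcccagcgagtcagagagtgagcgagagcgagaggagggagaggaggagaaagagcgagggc
In Mitf the LEF/TCF motif began 205 bases and the cAMP response element 153 bases upstream of the start. In Foxd3 the cAMP response element began at 233 and the E-box at 217 bases upstream, and in Pou3f2 the LEF/TCF motif began at 182. Of all 32851 promoters in the table, 1.55% held TGACGTCA, 3.21% held CTTTGAT and 6.02% held CACGTG in a window of the same length. TCATGTG was in no window of the 7 factors.

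The second set is shown because these 3 pigment enzymes are the targets through which Mitf activity is usually read. Tyr lies at chr7:87493513-87493762 (-), Tyrp1 at chr4:80833963-80834212 (+) and Dct at chr14:118052247-118052496 (-). Capitals mark TCATGTG or its reverse complement CACATGA.
Tyr: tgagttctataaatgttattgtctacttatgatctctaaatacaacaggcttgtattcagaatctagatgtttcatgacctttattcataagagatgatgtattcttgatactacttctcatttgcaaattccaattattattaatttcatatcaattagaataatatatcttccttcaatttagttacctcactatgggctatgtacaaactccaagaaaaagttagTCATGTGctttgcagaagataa
Tyrp1: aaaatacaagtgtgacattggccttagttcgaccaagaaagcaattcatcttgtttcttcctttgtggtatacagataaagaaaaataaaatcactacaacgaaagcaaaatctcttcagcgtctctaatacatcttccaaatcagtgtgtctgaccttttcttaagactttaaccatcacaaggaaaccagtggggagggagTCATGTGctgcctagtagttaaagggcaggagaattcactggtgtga
Dct: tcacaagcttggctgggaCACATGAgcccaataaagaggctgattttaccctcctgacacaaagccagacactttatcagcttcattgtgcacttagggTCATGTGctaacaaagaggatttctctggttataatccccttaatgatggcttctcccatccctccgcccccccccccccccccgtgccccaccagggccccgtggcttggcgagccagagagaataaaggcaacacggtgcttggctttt
The E-box began 22 bases upstream of the start in Tyr and 47 bases upstream in Tyrp1. Dct held 2 matches, which began 232 and 151 bases upstream. Among the melanocyte target genes described further on, 8 of the 21 genes with a listed promoter held TCATGTG in at least 1 window and 11 held CATGTG, where 3.25% and 12.3% of all promoters held them. A gene can have several windows, so the 2 shares are not counted over the same unit.

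By detection, the factors formed 3 groups. Mitf, Pax3, Tfap2a, Tfe3 and Tfeb were detected in all 4 lines, and none of these 5 differed between B16 and a passaged line by 2-fold on the centred scale. Foxd3, a repressor of the pigment fate in early neural crest, was detected in B16-RI alone, and Pou3f2 was detected in B16-RI and B16-RIIL. Lef1, the nuclear partner of beta-catenin on Wnt target genes, and Sox9, a neural crest and cartilage factor, were detected in no line.

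**Figure D1:**
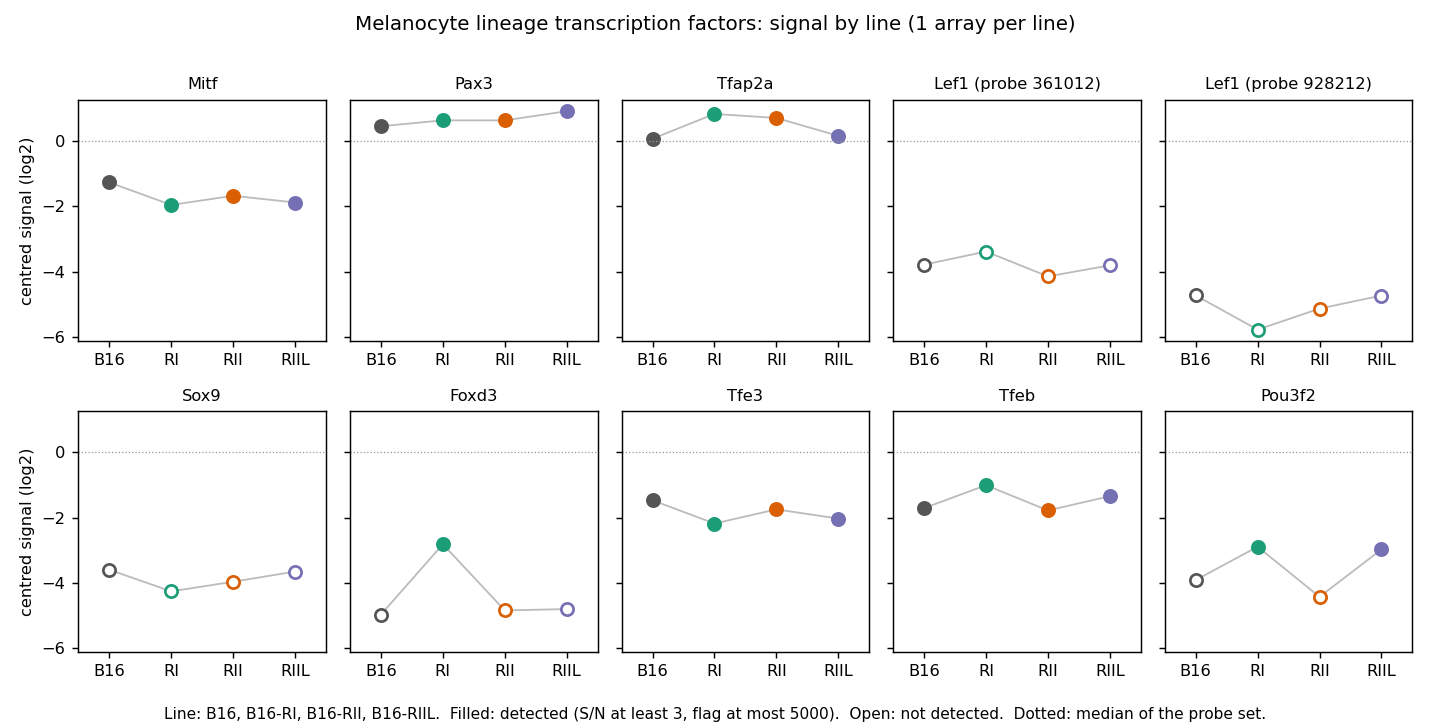
Centred signal (log2, y axis) of each of the 10 probes on the 4 arrays (x axis, 1 array per line), with filled points detected, open points not detected and the dotted line at the median of the probe set. Foxd3 stands at -2.82 in B16-RI and between -4.97 and -4.80 in the other lines, and Mitf and Tfe3 both have their highest point in B16, an order that 2 of the 6 scalings turn for B16-RII and 1 turns for Tfe3 in B16-RIIL.

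Between B16-RI and B16, 2 of the 7 member probes detected on either array were called higher, Foxd3 and Pou3f2, where 7.93% of all probes detected on either array were. The 3 member probes detected on neither array could not be called. None of the 7 was called lower, where 11.3% of all probes were. Between B16-RII and B16 none of 5 was called, where 6.62% of all probes were called higher and 11.4% lower. Between B16-RIIL and B16 none of 6 was called either, where 8.12% of all probes were higher and 10.4% lower. The Pou3f2 difference there was 0.94 log2 units against an undetected B16 reading, and it was called under 5 of the 6 scalings. From B16-RI to B16-RII, 2 of 7, Foxd3 and Pou3f2, were called lower, where 8.25% of all probes were, and none was called higher, where 6.93% were. From B16-RII to B16-RIIL, 1 of 6, Pou3f2, was called higher, where 8.91% of all probes were, and none was called lower, where 6.65% were. The 5 members detected on both arrays had a median of 0.18, -0.07 and 0.09 log2 units against B16 in B16-RI, B16-RII and B16-RIIL, beside 0.02, -0.03 and -0.04 over all probes detected on both. Under the 6 scalings the members' median ran from 0.18 to 0.58, from -0.07 to 0.35 and from 0.09 to 0.38.

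Foxd3 showed the widest spread of the 10 probes. Its gene lies at chr4:99656299-99658671 (GRCm38.p6), and its probe is 829244. The centred signal was -4.97 in B16, -2.82 in B16-RI, -4.84 in B16-RII and -4.80 in B16-RIIL. S/N was 0.64, 7.93, -0.43 and 1.83 in the same order, so B16-RI was the one line above the detection limit. The signal in B16-RI was at least 4.45-fold that of B16 (difference 2.15 log2 units), and in B16-RII it was at least 4.07-fold below B16-RI. Both calls held under all 6 scalings, where the B16-RI difference from B16 ran from 2.15 to 2.61 log2 units and that of B16-RII from B16-RI from -2.23 to -1.78. Every value given as "at least" is taken on the centred scale against the undetected reading as measured. Noise in that reading is not counted, and another scaling can put the value lower, so it is no strict bound. On the B16-RI array this spot carried the analyzer's flag 64, as did 276 of the 13872 probes detected there (1.99%), and the meaning of that flag is not given in the sources used here.

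Pou3f2, a POU-domain factor of neurons and invasive melanoma cells, followed with signals in 2 lines. Its gene lies at chr4:22482095-22488366, and its probe is 554215. The centred signal was -3.91 in B16, -2.89 in B16-RI, -4.43 in B16-RII and -2.97 in B16-RIIL, with S/N of 1.70, 4.43, 2.48 and 13.1. The 2 lines in which it was detected were thus the brighter ones, and B16 and B16-RII lay under the limit. Pou3f2 read 2.02-fold higher in B16-RI than in B16 and 1.91-fold higher in B16-RIIL than in B16. The undetected B16 reading is taken as measured here, and noise in it can make the true fold lower. The B16-RI call held under all 6 scalings (1.02 to 1.44 log2 units), and the B16-RIIL difference passed 2-fold under 5 of the 6 (0.94 to 1.51). B16-RIIL lay above B16-RII by 1.45 log2 units (1.40 to 1.69 over the 6 scalings), and B16-RII lay below B16-RI, with a difference of -1.53 (-1.73 to -1.29). The probe was not detected in B16-RII, and both 2-fold calls held under all 6 scalings.

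**Figure D2:**
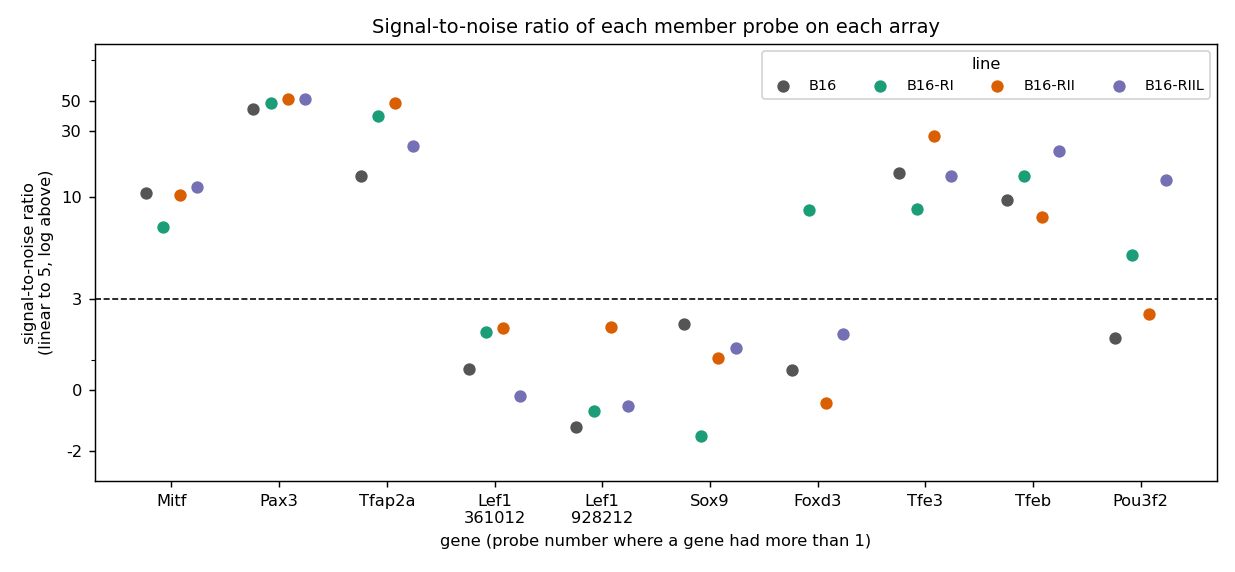
S/N (y axis, linear up to 5 and logarithmic above) of each of the 10 probes (x axis), with 1 point per line and the dashed line at the detection limit of 3. Pax3 lies between 43.3 and 51.7 in every line, Lef1 and Sox9 lie under the limit in every line, and Pou3f2 reaches 13.1 in B16-RIIL.

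Mitf itself was detected in every line and was not called in any comparison. Its gene spans chr6:97807002-98021360, and its probe is 321548. The deposited normalized signal was 6.37 in B16, 5.20 in B16-RI, 6.45 in B16-RII and 5.96 in B16-RIIL, with S/N of 10.6, 5.98, 10.3 and 11.7. On the centred scale these were -1.27, -1.96, -1.68 and -1.88, with B16 highest and B16-RI lowest. The difference from B16 was -0.69 log2 units in B16-RI, and 6.43% of the 11604 probes detected on all 4 arrays had a more negative one. In B16-RI the difference stayed negative under all 6 scalings (-0.69 to -0.29), and in B16-RIIL as well (-0.62 to -0.05). In B16-RII it was -0.41 when centred, and 2 of the 6 scalings turned its sign, up to 0.17, so no order of Mitf between B16 and B16-RII can be given. Which of the Mitf transcript forms the probe reads was not analysed here.

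Tfe3, a MiT family member that acts on lysosome genes, had values close to those of Mitf in their differences between lines. Its gene lies at chrX:7762530-7775202, and its probe is 349584. The centred signal was -1.47 in B16, -2.18 in B16-RI, -1.75 in B16-RII and -2.03 in B16-RIIL, and S/N ran from 8.10 to 27.8. On the centred scale the order of the 4 lines was the same as for Mitf. The difference from B16 was -0.71, -0.28 and -0.56 log2 units, none of them called, and under the 6 scalings it ran from -0.71 to -0.31 in B16-RI, from -0.28 to 0.30 in B16-RII and from -0.56 to 0.01 in B16-RIIL. Mitf and Tfe3 lie in the same probe set, so a scaling factor of that set cancels when 1 is set against the other. Against Mitf on the same array, the Tfe3 difference from B16 was -0.02, 0.13 and 0.06 log2 units in B16-RI, B16-RII and B16-RIIL. Over these 3 differences the pair lay 0.14 log2 units apart as a Euclidean distance, where the median distance of a probe from Mitf was 1.07. This pair was picked out after its values had been seen.

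Tfeb, the family member best known as a switch of autophagy genes, had another order of lines. Its gene lies at chr17:47737037-47792416, and its probe, 921685, is in the other probe set. The centred signal was -1.71 in B16, -1.01 in B16-RI, -1.78 in B16-RII and -1.35 in B16-RIIL, and S/N ran from 7.09 to 21.4. B16-RI was the brightest line, 0.70 log2 units above B16 (0.52 to 0.70 over the 6 scalings), and B16-RIIL stood 0.37 above B16 (0.10 to 0.38). Against B16-RII, B16-RI was 0.77 log2 units brighter, short of the 2-fold limit under every scaling. The B16-RII difference from B16 was -0.07 (-0.17 to 0.35) and turned positive under 2 of the 6 scalings. No order of Tfeb between B16 and B16-RII can thus be given. The fourth gene of the family, Tfec, is on the list of partners and was read after its values had been seen. Its centred signal was 4.07, 4.13, 4.06 and 4.10 in B16, B16-RI, B16-RII and B16-RIIL, a spread of under 0.1 log2 units.

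Among the 5 members detected in every line, Tfeb had the widest range on the centred scale, 0.77 log2 units, just above the 0.76 of Tfap2a, and by that rule it was the one for which similar patterns were sought. Under the 5 other scalings Tfap2a had the widest range instead, up to 1.21, where that of Tfeb ran from 0.58 to 0.77 over all 6. Over the 3 differences from B16, the nearest of 8064 probes with a symbol that were detected on all 4 arrays were those of Ccdc58 (listed as AI413631), at a Euclidean distance of 0.11 log2 units, and Anapc1, a subunit of the anaphase promoting complex, at 0.13. Lrif1 (listed as 4933421E11Rik), Pomp (listed as 2510048O06Rik), a proteasome assembly factor, and Arhgap12 followed at 0.18, 0.18 and 0.19. Their own differences between B16-RI and B16 ran from 0.56 to 0.74 log2 units, none of which reaches 2-fold. In the order named, their lowest S/N was 5.84, 3.6, 24.8, 3.81 and 3.15, so most came near the detection limit of 3. Ranges of this size were common: 22.4% of the probes detected on all 4 arrays had a wider range than Tfeb, 23.3% than Tfap2a, 26.6% than Tfe3, 28.1% than Mitf and 55.2% than Pax3.

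**Figure D3:**
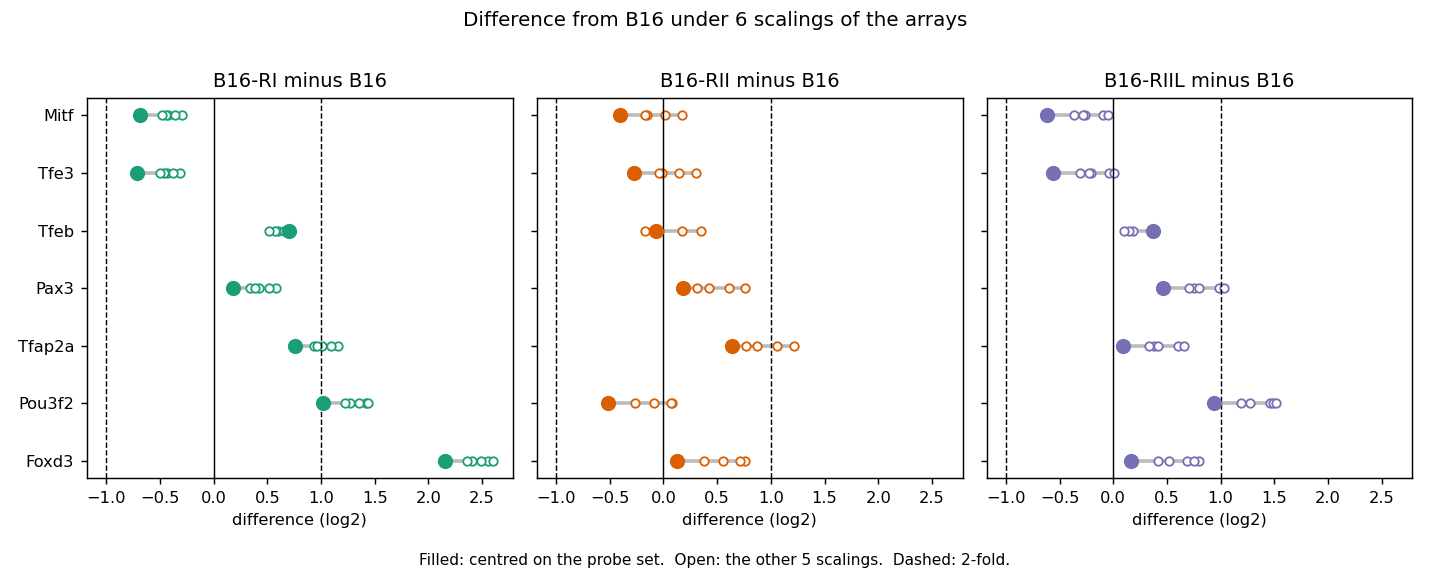
Difference from B16 (log2, x axis) of the 7 members detected on at least 1 array (y axis), with the filled point on the centred scale, the open points under the other 5 scalings and dashed lines at 2-fold, in 1 panel per line. Foxd3 lies beyond 2-fold in B16-RI under all 6 scalings, and the Mitf difference in B16-RII runs from -0.41 to 0.17 and so crosses 0.

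Of the factors upstream of Mitf, Pax3 was detected in all 4 lines. It is a paired-domain factor that acts on the Mitf promoter together with Sox10. Its gene lies at chr1:78101267-78197136, and its probe is 325761. The centred signal was 0.45 in B16, 0.63 in B16-RI, 0.63 in B16-RII and 0.91 in B16-RIIL, with S/N of 43.3, 48.3, 51.7 and 51.6. B16 was the dimmest line and B16-RIIL the brightest, and the 2 lines between them did not differ in these digits. The difference of 0.46 log2 units between B16-RIIL and B16 was not called, but it ran up to 1.03 and passed 2-fold under 1 of the 6 scalings. In B16-RI and B16-RII the difference from B16 was 0.18 in both, with ranges of 0.18 to 0.58 and 0.18 to 0.76. On the B16-RI array this spot also carried flag 64.

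Tfap2a, an AP-2 factor that binds many Mitf target enhancers with Mitf, was brighter in 2 of the passaged lines without reaching the limit. Its gene lies at chr13:40713802-40738238, and its probe is 905732. The centred signal was 0.07 in B16, 0.82 in B16-RI, 0.70 in B16-RII and 0.15 in B16-RIIL, with S/N of 14.2, 38.6, 48.5 and 23.3. Both lymph node lines thus lay above the parental line and the lung line. The difference from B16 was 0.76 log2 units in B16-RI, which 3 of the 6 scalings put past 2-fold (0.76 to 1.16), and 0.63 in B16-RII, which 2 of the 6 put past it (0.63 to 1.21). In B16-RIIL it was 0.09 (0.09 to 0.66).

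Tfap2a and Pax3 were also set against Mitf on the same array, since all 3 lie in 1 probe set. The Tfap2a difference from B16 minus the Mitf difference was 1.45 log2 units in B16-RI, 1.04 in B16-RII and 0.70 in B16-RIIL. After quantile normalization these were 1.35, 0.92 and 0.65. For Pax3 the same values were 0.87, 0.59 and 1.08, and 0.76, 0.46 and 1.01 after quantile normalization. All 6 values were positive under both scalings, but a factor of the probe set cancels here, so the scalings give similar values by construction. The values share the same single readings of Mitf, and noise in these readings was not tested. They do not say which probe of a pair moved.

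Lef1 and Sox9 stayed under the detection limit throughout. Lef1, at chr3:131110297-131224357, had probes 361012 and 928212, whose S/N ran from -0.21 to 2.03 and from -1.22 to 2.06. In these undetected signals the 2 Lef1 probes did not move alike, with a B16-RI difference from B16 of 0.40 log2 units for the first and -1.05 for the second. Sox9, at chr11:112782210-112787757, had probe 922230 with S/N between -1.51 and 2.16. For both genes the arrays give an upper limit and no order of the lines.

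The genes linked to these factors were read through 3 lists, each gene by its brightest probe. The first held 25 partners and regulators, such as other Sox, Tfap2 and T-box genes, of which 23 had a probe and 14 were detected in at least 1 line. Counted by gene, 12, 12 and 14 were detected on either array in B16-RI, B16-RII and B16-RIIL against B16. Of these, 0 were higher and 1 lower than B16 in B16-RI, 0 and 1 in B16-RII, and 1 and 1 in B16-RIIL. The shares that follow count every probe, not the brightest per gene. Over all probes tested the higher and lower shares were 7.93% and 11.3% in B16-RI, 6.62% and 11.4% in B16-RII, and 8.12% and 10.4% in B16-RIIL. The median difference over the 10 detected on both arrays was 0.06, 0.18 and 0.00 log2 units, and under the 6 scalings it ran from 0.06 to 0.41 in B16-RI, from 0.18 to 0.65 in B16-RII and from 0.00 to 0.45 in B16-RIIL. The gene called lower in both lymph node lines was Sox8, a relative of Sox10, with centred signals of -3.39, -4.39, -4.41 and -2.99 in B16, B16-RI, B16-RII and B16-RIIL. It was detected in B16 (S/N 3.79) and B16-RIIL (4.73) only, and was at least 2.01-fold lower in B16-RI and at least 2.03-fold lower in B16-RII, where the call held under 3 of the 6 scalings. Under the other 3 the partner call in B16-RII was instead Usf1, a basic helix-loop-helix factor, as higher, with a difference of 0.74 that ran up to 1.32 log2 units, and with median scaling Tbx2 too, a T-box repressor, at 1.09. Hes1, a Notch target that represses differentiation genes, was detected in B16, B16-RI and B16-RII with S/N from 4.27 to 7.21, and fell at least 5.17-fold in B16-RIIL. Tfap2b, a relative of Tfap2a, was detected in B16-RIIL alone (S/N 4.57), at least 4.11-fold above B16. The Hes1 and Tfap2b calls held under all 6 scalings. Under the 5 other scalings Tbx2 was called higher in B16-RIIL too, with a difference of 0.89 as centred and up to 1.46 log2 units, so that the counts of 1 and 1 hold on the centred scale only.

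The second list held 30 melanocyte target genes, of which 25 had a probe and 22 were detected in at least 1 line. Counted by gene, 21, 20 and 21 were detected on either array in B16-RI, B16-RII and B16-RIIL against B16. Of these, 1 was higher and 3 lower than B16 in B16-RI, 0 and 3 in B16-RII, and 3 and 3 in B16-RIIL. The same shares over all probes stand beside them, 7.93% and 11.3%, 6.62% and 11.4%, and 8.12% and 10.4% higher and lower, respectively. The median over the 19 detected on both arrays was -0.15, -0.16 and -0.07 log2 units, and other scalings moved it to between -0.21 and -0.02 in B16-RI, between -0.16 and 0.31 in B16-RII and between -0.10 and 0.22 in B16-RIIL. The pigment enzymes were not among the called genes. Centred signals of Tyrp1 were 7.42, 7.37, 7.18 and 7.07 in B16, B16-RI, B16-RII and B16-RIIL, those of Dct 7.06, 6.91, 6.93 and 6.93, and those of Tyr -0.53, -0.76, -0.72 and -0.57. None of these 3 differed from B16 by more than 0.35 log2 units on the centred scale, and for Tyrp1 and Dct other scalings turned the sign in each line.

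Cited1, a transcriptional coactivator expressed in melanocytes, was lower than B16 in every passaged line. Its centred signal was 1.99 in B16, 0.59 in B16-RI, 0.50 in B16-RII and 0.38 in B16-RIIL, with S/N of 31.4 or more. The differences of -1.40, -1.48 and -1.61 log2 units were called under all 6 scalings. Cdk2, a cell cycle kinase whose gene neighbours the pigment gene Pmel and shares control by Mitf, was also lower in every passaged line. It was detected in B16 (S/N 7.32) and B16-RII (5.34), and stood at least 7.97-fold lower in B16-RI, 1.20 log2 units lower in B16-RII and at least 3.24-fold lower in B16-RIIL. The B16-RII call of Cdk2 held under 4 of the 6 scalings, and the others under all 6. Oca2, a melanosome membrane protein needed for pigment, had centred signals of -0.01, -1.95, -0.80 and -1.37, and so fell by 1.94 log2 units in B16-RI and by 1.36 in B16-RIIL on the centred scale. The B16-RI call held under all 6 scalings (-1.94 to -1.54), and the B16-RIIL call under 4 of them (-1.36 to -0.79).

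The 3 target genes called higher in B16-RIIL were Kit, Met and Ret. Kit, the stem cell factor receptor of melanoblasts, had centred signals of -1.57, -2.07, -1.17 and -0.19 in B16, B16-RI, B16-RII and B16-RIIL, and rose by 1.38 log2 units in B16-RIIL. Met, the hepatocyte growth factor receptor, had -2.17, -2.58, -1.21 and -0.89, and rose by 1.27 in B16-RIIL, with a difference of 0.96 in B16-RII that passed 2-fold under 4 of the 6 scalings. Ret, a receptor tyrosine kinase of the neural crest, was detected in B16-RIIL alone (S/N 3.94), at least 2.43-fold above B16. These 3 calls in B16-RIIL held under all 6 scalings. Mc1r, the melanocortin receptor of melanocytes, was called higher there under 2 of the 6, with a difference of 0.59 as centred and up to 1.16 log2 units. Bcl2, a survival gene, fell at least 3.99-fold in B16-RII, where it was not detected, and Gjb1, a gap junction gene, was detected in B16-RI alone (S/N 3.27), at least 2.70-fold above B16. Both of these calls also held under all 6 scalings.

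The third list held 22 lysosome and autophagy genes, the class read by Tfe3 and Tfeb. Of these, 20 had a probe and 18 were detected in at least 1 line. Against B16, 18, 17 and 17 were detected on either array in B16-RI, B16-RII and B16-RIIL. Counted by gene, 1 was higher than B16 in B16-RI and none in B16-RII or B16-RIIL, and none was lower in any line, beside the shares over all probes of 7.93%, 6.62% and 8.12% higher and of 11.3%, 11.4% and 10.4% lower in B16-RI, B16-RII and B16-RIIL. That gene was Neu1, a lysosomal sialidase, detected in B16-RI alone (S/N 6.24) and at least 3.48-fold above B16, a call that held under all 6 scalings. The median over the 17 genes detected on both arrays was 0.05, 0.15 and 0.32 log2 units in B16-RI, B16-RII and B16-RIIL, beside 0.02, -0.03 and -0.04 over all probes. Above 0 lay 10, 12 and 12 of the 17 in B16-RI, B16-RII and B16-RIIL, and other scalings moved these counts. The share of all probes above 0 was not counted. Map1lc3b, an autophagosome protein, differed from B16 by 0.24, 0.14 and 0.70 in the same order, and was called in B16-RIIL under 3 of the 6 scalings. Sqstm1, an autophagy receptor, differed by 0.45, 0.55 and 0.56. Both were named after their values had been seen. Under the 6 scalings the median ran from 0.04 to 0.33 in B16-RI and from 0.10 to 0.58 in B16-RII. In B16-RIIL it ran from 0.15 to 0.47, and the median of the list minus that of all probes ran from 0.17 to 0.37.

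**Figure D4:**
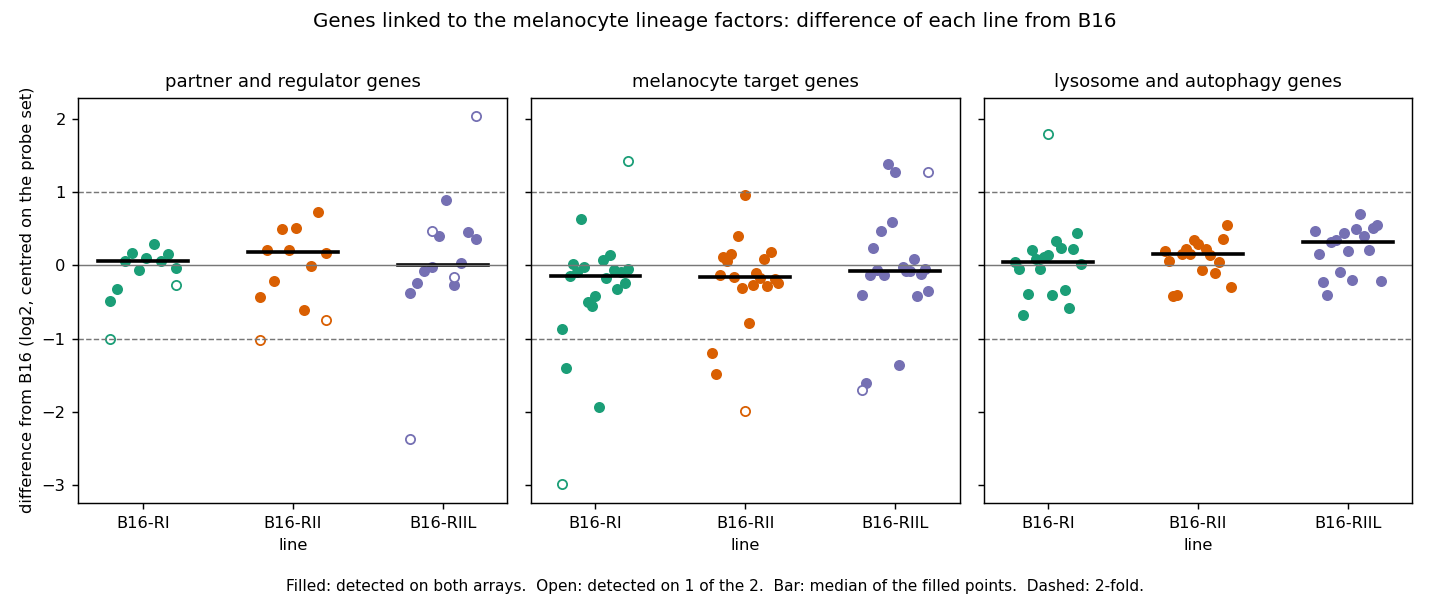
Difference from B16 (log2, y axis) of each gene of the 3 linked lists in each passaged line (x axis), with filled points detected on both arrays, open points detected on 1 of them, bars at the median of the filled points and dashed lines at 2-fold. The medians lie between -0.16 and 0.32, and most points lie within 2-fold of B16.

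Markers of the melanocyte lineage were detected in every line, and so were some markers of other cell types. Of the 5 melanocyte markers 4 had a probe (Tyr, Tyrp1, Dct and Pmel), all were detected in every line with S/N up to 118, none was called, and their summed level ran from 316 to 367 times the probe set median. Of 7 leukocyte markers, 2 were detected in B16 and none in the passaged lines, with a summed level of 0.25 to 0.42. Of 6 endothelial markers, 0, 0, 1 and 1 were detected in B16, B16-RI, B16-RII and B16-RIIL, with a summed level of 0.21 to 0.29. Of 6 fibroblast markers, 2, 1, 2 and 3 were detected (0.58 to 1.07), and of 7 epithelial markers 3, 1, 2 and 4 (0.70 to 1.10). Fewer cells of a type and less RNA per cell cannot be told apart in such cultures. The summed fibroblast level was 0.80, 0.99, 0.58 and 1.07 in B16, B16-RI, B16-RII and B16-RIIL. Such sums run over different probes, so those of different lists cannot be set against each other. Col1a2 and Col1a1, which encode the chains of type I collagen and are named after their values had been seen, did not move alike. Col1a2 was detected in all 4 lines with S/N from 13.2 to 47.7. It differed from B16 by 0.85, -0.20 and 0.88 log2 units, and under the 5 other scalings the differences in B16-RI and B16-RIIL were called as higher. On the centred scale it lay 1.05 log2 units lower in B16-RII than in B16-RI, a call that held under 5 of the 6 scalings, and 1.08 higher in B16-RIIL than in B16-RII, a call that held under all 6. Col1a1 was not detected in B16-RI (S/N 1.39), and it was called lower than B16 in each passaged line, at least 3.39-fold in B16-RI and by differences of -1.08 and -1.06 log2 units in B16-RII and B16-RIIL. These calls held under 6, 2 and 1 of the 6 scalings. The part of other cell types in the Foxd3 and Pou3f2 calls was not tested.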

How the data were processed

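RNA of 4 mouse melanoma lines was measured on 1-colour chemiluminescence arrays, of which the A array of each line was used. The authors deposited raw and normalized signal intensity values of 33012 probes. The normalized intensity was found to be the raw one divided by 1 of 2 constants per array, for 2 probe sets of 16524 and 16488 probes, although the study's methods name quantile normalization. The signal-to-noise ratio and flag deposited by the authors are scores of the analyzer. The limits of 3 and 5000 follow the study's methods. The genome build behind the probes is not given in the sources used here. Of the table's columns 16 were used, and 44 were not. Of the latter, 20 hold values of second arrays, which no sample label names and which may be replicates of the lines. The other 24 hold ratios and log2 values derived by the authors.

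Log2 of the normalized signal was centred on the median of its probe set, over probes detected on all 4 arrays. Some probes were detected on only 1 of 2 arrays. Their fold was taken against the dim array's own signal or, if higher, the dimmest detected signal there. Noise of the dim signal is not counted, so a fold written as "at least" is no strict lower bound. Such centring also removes any true shift shared by a probe set. With 1 array used per line no test was run, and precision is limited by the number of arrays. The members and lists were chosen with earlier results of these data known. Named were all members, list genes called against B16, and the 5 genes nearest in pattern to the member of widest range among those detected on all 4 arrays. Exceptions are marked in the text. Alternatives were 5 other scalings, S/N of 5, detection on both arrays, limits of 1.5-fold and 4-fold, and, for the lists, any probe of a gene called. The calling rule was run on simulated data with a set noise, in which only probes detected on all 4 arrays were changed. Calls of probes undetected on 1 array, such as those of Foxd3 and Pou3f2, were not covered by it. Gene names, gene coordinates and promoters came from RefSeq tables of assembly GRCm38.p6. Python 3.11.15, numpy 2.4.6, pandas 2.3.3 and matplotlib 3.10.9 were used.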

Additional observations from a re-analysis of the deposited data

How the results depend on the processing

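No paired analysis was possible because 1 array per line was used, and for the same reason no replicate could be left out. Second arrays of the table, which may be the duplicates that the study describes, were not used here. Under the 5 other scalings no called member difference turned its sign or lost its call, and 11 of the 250 member values were newly called, at 2-fold with detection on the brighter array. Another 81 moved by at least 0.25 log2 units, and 158 moved by less. The causes of the changes in counts were not tested, except that a stricter or looser rule counts fewer or more by construction.

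Among member probes, the 2 calls of B16-RI against B16 became 1 at S/N of 5, 0 with detection on both arrays, 6 at 1.5-fold and 1 at 4-fold. The 0 calls of B16-RII against B16 became 1 without centring, 1 with median scaling and 1 at 1.5-fold. The 0 calls of B16-RIIL against B16 became 1 without centring, with quantile normalization, with 75th percentile scaling and with 1 median per array, and 2 with median scaling and at 1.5-fold. From B16-RI to B16-RII the 2 calls became 1 at S/N of 5 and at 4-fold and 0 with detection on both arrays, and from B16-RII to B16-RIIL the 1 call became 0 with detection on both arrays and at 4-fold.

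Among partner genes, the 1 call in B16-RI became 0 at S/N of 5, with detection on both arrays and at 4-fold. The 1 call in B16-RII became 0 under the same 3 rules, 2 with median scaling and 4 at 1.5-fold. It was 1 lower gene as given, but 1 higher and 0 lower without centring and with quantile normalization, and 2 higher and 0 lower with median scaling. The 2 calls in B16-RIIL, 1 higher and 1 lower, became 4 with median scaling (3 higher, 1 lower) and 3 under each of the other 4 scalings (2 higher, 1 lower), and 0 at S/N of 5 and with detection on both arrays. Among target genes, the 4 calls in B16-RI became 2 with detection on both arrays and 1 at 4-fold, the 3 in B16-RII became 5 at 1.5-fold and 0 at 4-fold, and the 6 in B16-RIIL became 0 at 4-fold. The 0 higher and 3 lower in B16-RII became 1 and 2 without centring and with median scaling, and 1 and 3 with quantile normalization and 75th percentile scaling. The 3 and 3 in B16-RIIL became 4 and 2 without centring and with median scaling, and 3 and 4 when any probe of a gene could be called. Among lysosome genes, the 1 call in B16-RI became 0 with detection on both arrays, 0 at 4-fold and 2 at 1.5-fold. The 0 calls in B16-RIIL became 1 without centring, 1 with 75th percentile scaling, 1 at 1.5-fold and 3 with median scaling. Of all 135 alternative counts, 94 stayed within 1.5 times the count given. Signal over background limits Foxd3, Pou3f2, Lef1 and Sox9, which were not detected in at least 2 of the 4 lines.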
